A study of Mus musculus with 2 samples.

Results

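The genes described here are 10 genes of the lysosome: the cathepsins Ctsa, Ctsb, Ctsc, Ctsd, Ctsh, Ctsl and Ctsz, the membrane glycoproteins Lamp1 and Lamp2, and Grn, which encodes progranulin. They were taken from the arrays by gene name and gave 13 of the 39429 probes and 10 of the 31883 genes. The list itself was chosen with earlier results of these data known, so counts and ranks of its members are descriptions only. Ctsa, Ctsd and Lamp2 had 2 probes each, the other 7 genes had 1, and each probe was printed as 1 spot on each array. RNA of 3 mouse embryonic stem (ES) cell clones was compared on 2 two-colour microarrays, on which the amounts of a transcript in a pair of RNAs are read as the brightness of a green dye (Cy3) and a red dye (Cy5) bound to the same spot.

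All 3 clones came from ZHBTc4, an ES line in which both native Oct4 alleles are disrupted and a regulated Oct4 transgene, silenced by doxycycline, keeps the cells going. Each clone was grown without feeder cells in 15% serum with 1000 IU/ml LIF and was treated with doxycycline before harvest. The clones differ in the protein made from a stably transfected pCAG-IP vector: EGFP alone (clone 2-5), Oct4 fused to EGFP (clone 9), or the nuclear receptor Nr5a2 fused to EGFP (clone 26). The EGFP array set the EGFP clone (Cy3) against the Nr5a2-EGFP clone (Cy5), and the Oct4 array set the Oct4-EGFP clone (Cy3) against the Nr5a2-EGFP clone (Cy5). The design has no replicate and no dye swap, and each vector is represented by a single clone. No test was therefore possible, and vector, clone and dye cannot be told apart in the 2 direct comparisons. The sources used here give no length of the doxycycline treatment.

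Cathepsins are proteases that digest protein in the acid interior of lysosomes. Most are cysteine proteases of the papain family, Ctsd is an aspartic protease and Ctsa a serine carboxypeptidase. Lamp1 and Lamp2 are heavily glycosylated proteins that line the inner face of the lysosomal membrane. Many lysosomal genes carry E-box letters near their start, to which the transcription factor TFEB and its relatives bind. In the early embryo, digestion of maternal protein in lysosomes is prominent in visceral endoderm and placenta, and ES cells that lose Oct4 turn into trophoblast-like cells.

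Of the spots in each of the 4 channels, 78.1% to 80.1% were well above background. A log2 level is the background-corrected signal after normalization, and a level is compared only between channels of the same probe. The Nr5a2-EGFP clone was read in Cy5 on both arrays, the only repeated reading of the study. The readings differed with an SD of 0.27 (log2) over 24622 genes, and 320 of these (1.30%) were at least 2-fold apart. Differences near that SD are described below as within the repeat. The repeat holds no spread between cultures or clones, and no difference between dyes, as both readings are Cy5. The direct ratios set Cy5 against Cy3, so a ratio within the repeat does not show that the clones are equal. A probe for Pou5f1 (the Oct4 gene) gave a log2 ratio of 0.78 for Oct4-EGFP over EGFP. That value is uncertain, as it uses the Nr5a2-EGFP reading on the Oct4 array, where the probe was not well above background. The 2 probes for Nr5a2 gave -0.92 and -0.39 for Nr5a2-EGFP over EGFP and -1.14 and -0.63 over Oct4-EGFP. Both thus read lower in the clone labelled Nr5a2-EGFP than in both others. This is against what its label would give if the probes read the vector. No source used here says which stretch of either transcript the vectors carry, so the labels could not be checked at these probes.

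Ctsb and Ctsl read higher in the Nr5a2-EGFP clone than in both other clones, and the other members did not reach 2-fold in a direct comparison at the probe that stands for the gene. Against EGFP, 2 of the 9 members with a value read at least 2-fold higher and 0 lower. Over all 26017 genes measured on that array, 3.33% read at least 2-fold higher and 5.08% lower. Against Oct4-EGFP, 2 of 9 members again read at least 2-fold higher and 0 lower, where 4.54% of 26124 genes read higher and 7.13% lower. The median log2 ratio of the members was 0.24 over EGFP and 0.47 over Oct4-EGFP, against 0.03 and 0.01 for all genes. Both comparisons use the same Nr5a2-EGFP clone, so they are not independent. Oct4-EGFP over EGFP was obtained as the difference of the 2 ratios. There, 0 of 9 members with a value were at least 2-fold higher or lower, where 6.39% of 26753 genes were higher and 5.78% lower, and the median of the members was 0.09 against 0.02 for all genes. At 1.5-fold, 3 members were higher and 0 lower over EGFP (all genes, 12.5% and 14.2%), and 4 were higher over Oct4-EGFP (12.7%). Oct4-EGFP over EGFP had 0 higher and 2 lower (15.6% and 14.2%). The members left without a value were Ctsh on the EGFP array, and so also in Oct4-EGFP over EGFP, and Ctsc on the Oct4 array. Ctsc was counted over EGFP, and in Oct4-EGFP over EGFP, only through the Nr5a2-EGFP channel of the EGFP array, where it read higher. Lamp1 was counted in every comparison although its saturated channels leave its ratios unmeasured. The medians of the members thus include values that are not usable folds. Reasons are given with each gene.

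**Figure D1:**
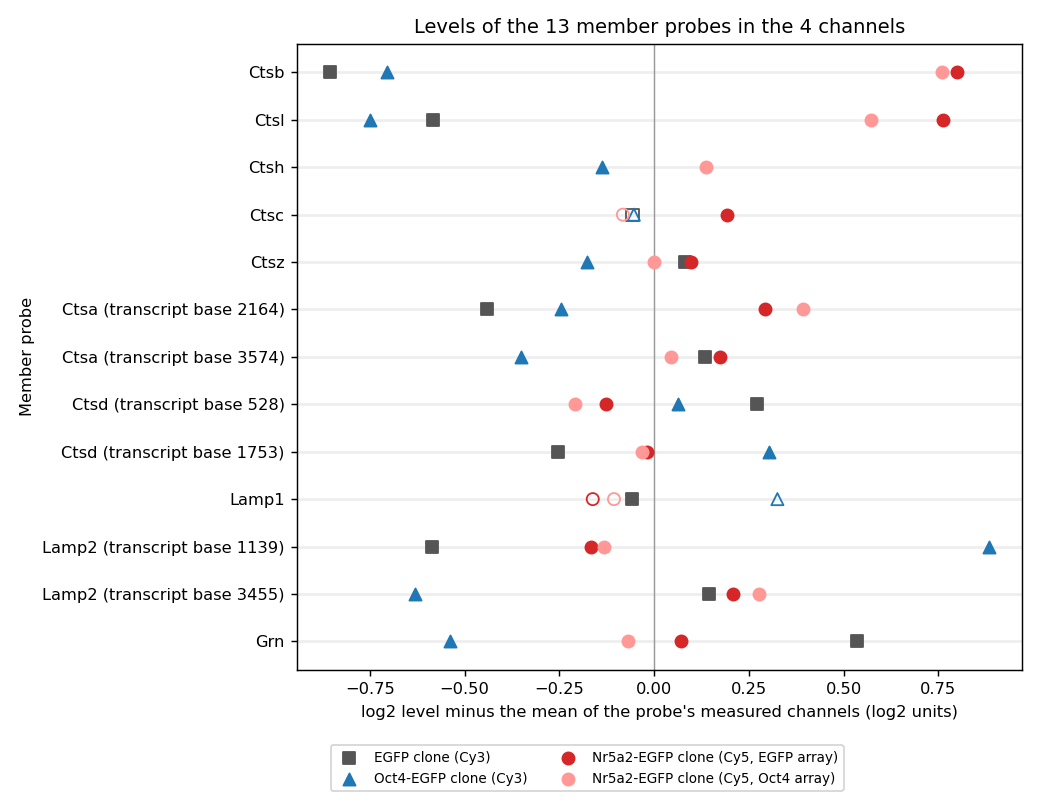
Log2 level of each of the 13 member probes in the 4 channels, minus the mean of that probe's measured channels (x axis, log2 units). Squares are the EGFP clone, triangles the Oct4-EGFP clone, and dark and pale circles the Nr5a2-EGFP clone on the EGFP and the Oct4 array; open symbols are saturated (Lamp1) or not well above background (Ctsc). Ctsb and Ctsl have both circles to the right of both other symbols, and the 2 Lamp2 probes have the Oct4-EGFP triangle at opposite ends.

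Ctsb, cathepsin B, is a papain-family protease that cuts both within proteins and from their C-terminal end. Its probe (NM_007798) lies on the plus strand at chr14:63761906-63761965 (mm9) and starts at transcript base 1885. Its log2 level was 12.13 in EGFP, 12.28 in Oct4-EGFP, and 13.78 and 13.74 in the readings of Nr5a2-EGFP. The Nr5a2-EGFP readings were 0.04 apart, and both stood clear of the other 2 clones. Ctsb was 3.15-fold higher in Nr5a2-EGFP than in EGFP (log2 ratio 1.65), and the scanner software gave 1.71 with its own error of 0.26. Over Oct4-EGFP it was 2.76-fold higher (log2 ratio 1.46), with 1.49 and an error of 0.25 from the software. The software error describes the noise of the spot and not that of cultures. Of all genes measured, 133 (0.511%) had a ratio at or above that of Ctsb over EGFP and 453 (1.73%) over Oct4-EGFP. The EGFP and Oct4-EGFP clones differed by 0.19, within the repeat.

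Ctsl, cathepsin L, is a papain-family endopeptidase, also known for trimming the histone H3 tail in differentiating ES cells. Its probe (NM_009984) lies on the minus strand at chr13:64465287-64465346 (mm9) and starts at transcript base 1146. The log2 level was 11.03 in EGFP, 10.87 in Oct4-EGFP, and 12.38 and 12.19 in the Nr5a2-EGFP readings. The readings of Nr5a2-EGFP differed by 0.19, less than the step from either other clone. Ctsl was 2.54-fold higher in Nr5a2-EGFP than in EGFP (log2 ratio 1.35, software 1.40 with an error of 0.24). It was 2.50-fold higher than in Oct4-EGFP (log2 ratio 1.32, software 1.40 with an error of 0.24). Ratios at or above these were held by 303 genes (1.16%) and 601 genes (2.30%). Oct4-EGFP over EGFP was 0.03, so the order of these clones was not resolved.

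**Figure D2:**
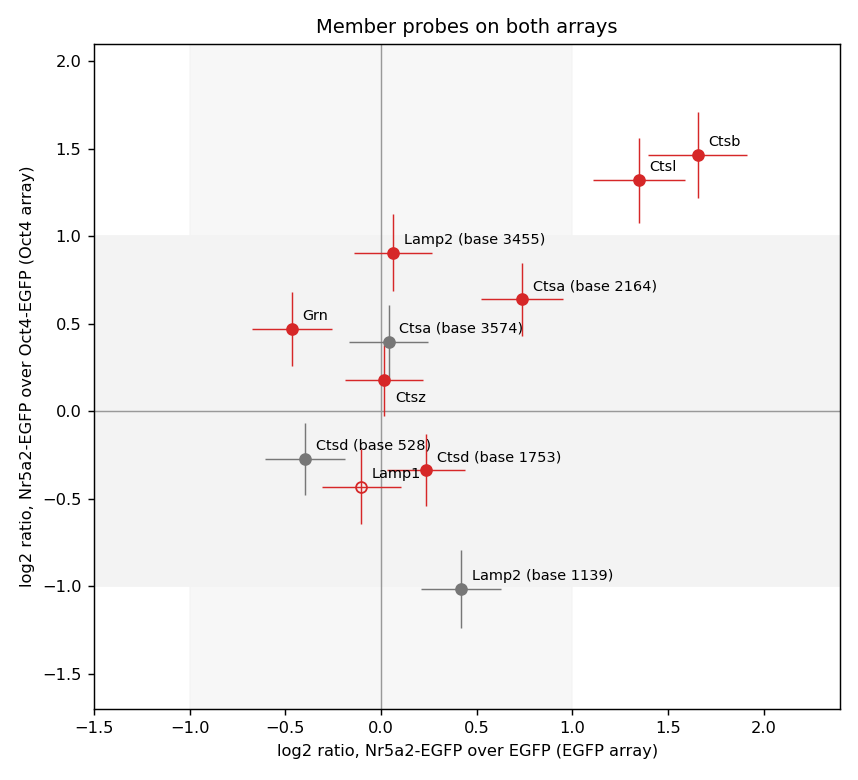
Log2 ratio of Nr5a2-EGFP over EGFP (x axis) against Nr5a2-EGFP over Oct4-EGFP (y axis) for the member probes well above background on both arrays. Red points are the probes used as the gene value, grey points the second probes, the open point has saturated channels, bars are the scanner software's error of each spot, and the grey bands mark ratios under 2-fold on each axis. Ctsb and Ctsl are the only points past 2-fold on both axes.

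Ctsh, cathepsin H, is an aminopeptidase of the papain family. Its probe (NM_007801; mm9, chr9:89970828-89970887, plus strand, transcript base 1517) read 11.95 in Oct4-EGFP and 12.22 in Nr5a2-EGFP on the Oct4 array. The difference of 0.27 was within the repeat. On the EGFP array the software marked its Cy5 spot as non-uniform, and that spot was left out. With the spot kept, the log2 level was 10.46 in EGFP and 11.31 in Nr5a2-EGFP, a ratio of 0.85. The Nr5a2-EGFP reading of that spot was then 0.91 below the reading on the other array, more than 3 times the SD of the repeat. With the spot kept, Oct4-EGFP over EGFP was 0.58 by the ratios and 1.49 by the Cy3 levels, past 2-fold by the second route alone. Cy3 of that spot was not marked as non-uniform. Ctsh has no usable value for Nr5a2-EGFP over EGFP, and its difference between EGFP and Oct4-EGFP depends on the route.

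Ctsc, cathepsin C or dipeptidyl peptidase I, activates granule proteases of immune cells. Its probe (NM_009982; mm9, chr7:95458436-95458495, plus strand, transcript base 1522) read 6.70 in EGFP, 6.70 in Oct4-EGFP, and 6.94 and 6.67 in Nr5a2-EGFP. It was well above background only in Cy5 of the EGFP array. There it was at least 1.19-fold higher than in EGFP, which was not well above background. The other Nr5a2-EGFP reading was not well above background either, so the direction rests on 1 dim spot. Ctsz, cathepsin X, trims single residues from the C-terminal end. It was among the bright probes (NM_022325; mm9, chr2:174253228-174253287, minus strand, transcript base 1100), with 14.30 in EGFP, 14.04 in Oct4-EGFP, and 14.31 and 14.22 in Nr5a2-EGFP. Its ratios of 0.02, 0.18 and -0.16 (Nr5a2-EGFP over EGFP, Nr5a2-EGFP over Oct4-EGFP, Oct4-EGFP over EGFP) were all within the repeat.

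Ctsa, the serine carboxypeptidase that also protects lysosomal neuraminidase and beta-galactosidase, had 2 probes for the same transcript (NM_008906, plus strand of chromosome 2, mm9). The brighter one lies at chr2:164665023-164665082 (transcript base 2164) and the other 1410 bases further, at chr2:164666433-164666492 (transcript base 3574). The brighter probe read 13.93 in EGFP, 14.12 in Oct4-EGFP, and 14.66 and 14.76 in Nr5a2-EGFP. Both Nr5a2-EGFP readings lay above both other clones, by 1.66-fold over EGFP (log2 ratio 0.74) and 1.56-fold over Oct4-EGFP (0.64). The dimmer probe read 10.55 in EGFP, 10.06 in Oct4-EGFP, and 10.59 and 10.46 in Nr5a2-EGFP. It gave 0.04 over EGFP and 0.40 over Oct4-EGFP, so the difference from EGFP was seen by 1 of the 2 probes.

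Ctsd, the aspartic protease cathepsin D, also had 2 probes (NM_009983, minus strand of chromosome 7, mm9). The brighter probe (chr7:149561962-149562021, transcript base 1753) read 13.61 in EGFP, 14.17 in Oct4-EGFP, and 13.85 and 13.84 in Nr5a2-EGFP. Oct4-EGFP was the highest there, with a log2 ratio of 0.57 over EGFP, and Nr5a2-EGFP had -0.34 against Oct4-EGFP. Nr5a2-EGFP over EGFP was 0.24, within the repeat. The other probe (transcript base 528) has its 60 bases spread over 1659 genome bases, chr7:149566847-149568505, so that it spans a splice junction. It is shown because it is the only member probe that reads across an intron.
Ctsd probe: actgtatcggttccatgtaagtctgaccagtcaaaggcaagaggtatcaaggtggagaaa
It read 9.88 in EGFP, 9.67 in Oct4-EGFP, and 9.49 and 9.40 in Nr5a2-EGFP. Its Oct4-EGFP over EGFP ratio was -0.13, against 0.57 at the brighter probe, so the probes gave no common order of the clones.

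Lamp1 was at the top of the scanner's range. Its probe (NM_010684; mm9, chr8:13175277-13175336, plus strand, transcript base 2193) read 15.83 in EGFP and was saturated in Oct4-EGFP (16.21) and in both readings of Nr5a2-EGFP (15.72 and 15.78). Both channels of the Oct4 array were saturated, so no fold is given there. The Cy3 level of Oct4-EGFP, a lower limit, was 0.38 above the level of EGFP. The Nr5a2-EGFP values are lower limits too, and their place relative to EGFP was not measured.

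Lamp2 gave opposite answers at its 2 probes. Lamp2 is made in several isoforms that differ in the last exon and so in the membrane anchor and tail, and one of them takes up proteins in chaperone-mediated autophagy. The brighter probe (NM_010685, transcript base 3455) lies on the minus strand at chrX:35772774-35772833 (mm9). The other (NM_001017959, transcript base 1139) lies on the same strand at chrX:35777505-35777564, 4731 bases nearer the gene's start. The array's annotation thus ties the probes to different RefSeq transcripts, and it lists 3 Ensembl transcripts for the second and 0 for the first. The second is shown because it carries the largest difference between EGFP and Oct4-EGFP among the member probes without a flagged spot, which leaves out Ctsh.
Lamp2 probe: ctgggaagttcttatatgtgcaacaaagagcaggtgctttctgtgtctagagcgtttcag
At the brighter probe the log2 level was 13.68 in EGFP, 12.90 in Oct4-EGFP, and 13.74 and 13.81 in Nr5a2-EGFP. Oct4-EGFP stood alone and low, 1.88-fold below Nr5a2-EGFP (log2 ratio 0.91, software 0.87 with an error of 0.22). At the probe shown, the log2 level was 10.45 in EGFP, 11.92 in Oct4-EGFP, and 10.87 and 10.91 in Nr5a2-EGFP. Oct4-EGFP stood alone and high, with Nr5a2-EGFP 2.03-fold lower (log2 ratio -1.02, software -0.98 with an error of 0.22). Oct4-EGFP over EGFP was -0.84 at the brighter probe and 1.44 (2.71-fold) at the other, and the Cy3 levels alone gave -0.77 and 1.47. The brighter probe minus the other was -2.28 on the log2 scale in that comparison and 1.93 in Nr5a2-EGFP over Oct4-EGFP. Over EGFP they gave 0.06 and 0.42, a difference of -0.36. For scale, genes were counted that have several unsaturated probes well above background in every channel of the comparison. Of 4224 such genes, 87 (2.06%) had probes past 1.5-fold in both directions in Nr5a2-EGFP over Oct4-EGFP. For Oct4-EGFP over EGFP this held for 124 of 4052 genes (3.06%). The arrays hold no reading of whole isoforms, so which transcripts differ was not measured.

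**Figure D3:**
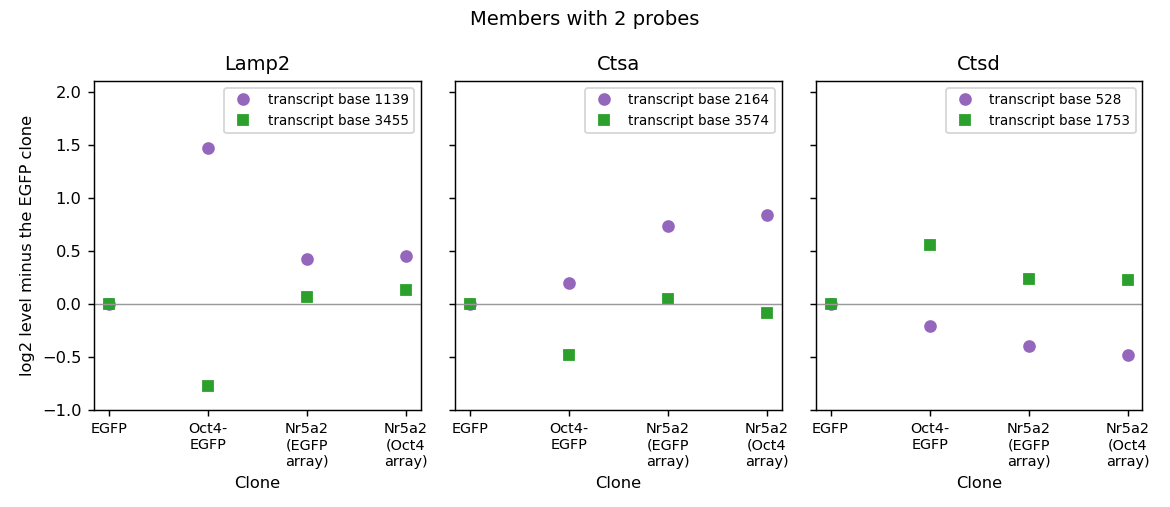
Log2 level minus that of the EGFP clone (y axis) in the EGFP, Oct4-EGFP and Nr5a2-EGFP clones (x axis, both Nr5a2-EGFP readings) for the genes with 2 probes, each probe named by its first base in the transcript. For Lamp2 the Oct4-EGFP points are at 1.47 and -0.77, while the Nr5a2-EGFP points of both probes lie between 0.06 and 0.45.

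Grn encodes progranulin, a secreted and lysosomal glycoprotein that is cut into granulins. Its probe (NM_008175) lies on the plus strand at chr11:102297692-102297751 (mm9) and starts at transcript base 1901. The log2 level was 13.64 in EGFP, 12.57 in Oct4-EGFP, and 13.18 and 13.04 in Nr5a2-EGFP. The 3 clones read in the order EGFP, Nr5a2-EGFP, Oct4-EGFP, each step larger than the SD of the repeat. The steps to Nr5a2-EGFP set Cy5 against Cy3, and that SD, from Cy5 alone, holds no difference between dyes. The place of Nr5a2-EGFP in this order is therefore uncertain. Nr5a2-EGFP was 0.47 below EGFP (log2 ratio -0.47, software -0.43 with an error of 0.21). It was 0.47 above Oct4-EGFP (software 0.49 with an error of 0.21). Oct4-EGFP was 1.91-fold lower than EGFP by the ratios (log2 -0.94) and -1.07 by the Cy3 levels, so that the 2-fold threshold was passed by the second route alone. With Lamp2 at its brighter probe, Grn was 1 of 2 members past 1.5-fold lower in Oct4-EGFP, where 14.2% of all genes were.

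Markers of cell types differed between the clones beside these results. Summed over 11 trophoblast markers, the normalized signal, in units of 1000, was 87.3 in EGFP, 86.3 and 85.2 in Nr5a2-EGFP, and 25.5 in Oct4-EGFP, with 8 or 9 markers well above background in each channel. Elf5 and Tpbpa were above background in none. Of the trophoblast markers measured, 1 of 8 read at least 2-fold higher and 1 lower over EGFP, and 7 of 9 read higher over Oct4-EGFP. Of all genes, 3.33% read higher and 5.08% lower over EGFP, and 4.54% higher over Oct4-EGFP. Summed over 8 ES cell markers, the normalized signal was 155 in EGFP, 100 in both readings of Nr5a2-EGFP, and 251 in Oct4-EGFP. Dppa5a and Nanog were saturated in a channel, and the other 6 summed to 23.2, 19.9 and 18.6, and 106. The 14 endoderm markers gave 77.6 in EGFP, 51.9 and 47 in Nr5a2-EGFP and 44.7 in Oct4-EGFP, with Afp above background in none. Endoderm markers with at least 2-fold higher signal in Nr5a2-EGFP numbered 0 of 11 measured over EGFP and 2 of 12 over Oct4-EGFP, Dab2 (1.86) and Lamb1 (1.63). Macrophages are rich in cathepsins, and the 8 macrophage markers gave 96.7 in EGFP, 110 and 108 in Nr5a2-EGFP and 108 in Oct4-EGFP, with Lyz2 above background in none. Nearly all of that signal came from Csf1r and Itgam, which were saturated in a channel, so these sums do not compare the clones. The other 6 markers summed to 1.17 in EGFP, 1.46 and 1.49 in Nr5a2-EGFP and 1.21 in Oct4-EGFP. Of 7 measured, 1 was at least 2-fold higher in Nr5a2-EGFP: Adgre1, at least 4.10-fold over EGFP and at least 4.95-fold over Oct4-EGFP, neither of which was well above background. The 8 fibroblast markers gave 8.15 to 14.8 with Lum above background in none. Ctsb and Ctsl were higher in Nr5a2-EGFP than in EGFP, and the summed trophoblast signal of these clones was about equal. That sum does not show equal trophoblast content, as single markers went both ways over EGFP (Gata3 1.00, Hand1 -1.27). Ctsb and Ctsl were also higher than in Oct4-EGFP, where the summed signal was smaller. Fewer cells of a type and less RNA per cell cannot be told apart in such bulk RNA. The part of cell type in the differences of Ctsb, Ctsl, Grn and Lamp2 was not tested.

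Promoter windows, 250 bases before to 50 after a transcript start, were available from RefSeq (GRCm38.p6) for 8 of the 10 members. Ctsb and Ctsh are not among them, and Ctsa has 2 starts, which makes 9 windows. The E-box letters CACGTG, which read the same on both strands, occurred in 4 of the 9 windows (44.4%), against 2349 of 32851 windows of all genes (7.15%). The longer letters TCACGTG, which contain them and were searched on both strands, occurred in 3 of 9 (33.3%) against 1237 of 32851 (3.77%). The 3 windows below are printed up to the start site, with each CACGTG in capitals, because they belong to a gene that read higher in Nr5a2-EGFP (Ctsl), a gene whose probes gave no common order (Ctsd) and the gene with the most matches (Lamp1). They lie at chr13:64370521-64370770 (minus strand), chr7:142387828-142388077 (minus strand) and chr8:13158911-13159160 (plus strand).
Ctsl: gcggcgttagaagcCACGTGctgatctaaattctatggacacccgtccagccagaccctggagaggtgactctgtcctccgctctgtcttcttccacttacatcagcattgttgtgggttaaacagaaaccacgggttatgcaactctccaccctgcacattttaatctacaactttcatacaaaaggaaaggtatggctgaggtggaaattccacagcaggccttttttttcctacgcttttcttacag
Ctsd: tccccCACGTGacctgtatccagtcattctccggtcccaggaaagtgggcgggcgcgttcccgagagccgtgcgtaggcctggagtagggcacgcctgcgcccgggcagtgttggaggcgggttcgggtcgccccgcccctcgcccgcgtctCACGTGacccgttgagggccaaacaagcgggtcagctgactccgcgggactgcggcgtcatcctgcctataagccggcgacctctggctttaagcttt
Lamp1: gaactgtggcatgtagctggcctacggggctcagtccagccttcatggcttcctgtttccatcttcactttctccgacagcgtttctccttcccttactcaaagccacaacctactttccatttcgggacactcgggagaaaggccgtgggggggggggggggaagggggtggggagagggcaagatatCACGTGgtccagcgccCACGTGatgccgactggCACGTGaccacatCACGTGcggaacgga
Lamp1 holds 4 matches, beginning 61, 45, 28 and 15 bases before the start, each within the longer letters. Windows with at least 4 matches number 8 among all 32851 (0.0244%). Ctsd holds 2, at 245 and 98 bases before the start, both within the longer letters. Ctsl holds 1, at 236 bases before the start, without the leading T on either strand. The Ctsl window ends in letters like those at the end of an intron, and whether this is the start used in these cells was not measured. The second start of Ctsa holds matches at -12 and 6. None was found in the windows of the first Ctsa start, Ctsc, Ctsz, Lamp2 and Grn. The arrays do not measure binding.

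**Figure D4:**
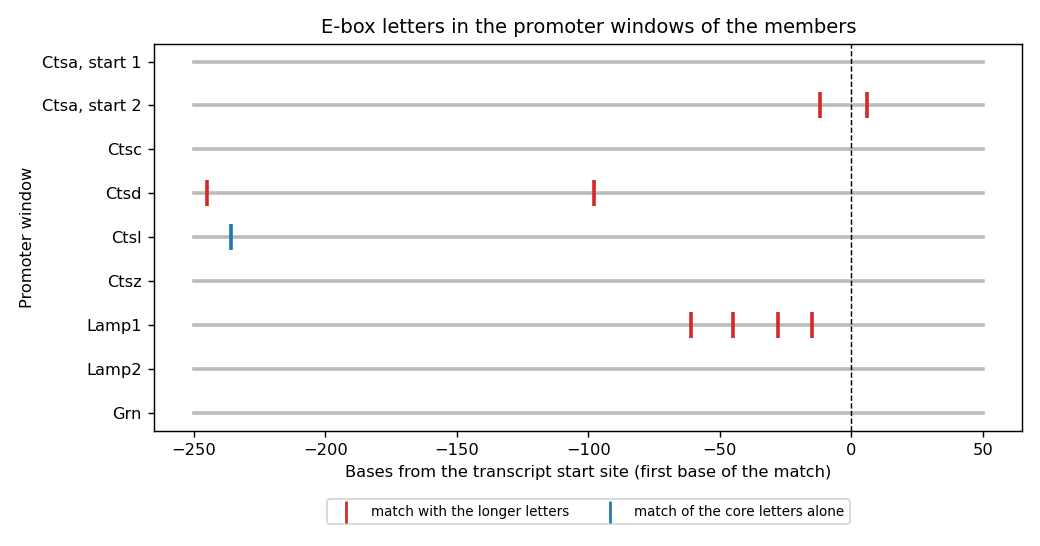
Position of the E-box letters in the 9 promoter windows of the members, in bases from the transcript start (x axis; the dashed line is the start). Red ticks are matches within the longer letters and the blue tick is a match of the core letters alone. Lamp1 has 4 matches, Ctsd and the second Ctsa start 2 each and Ctsl 1.

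Of 9 further lysosomal and papain-like cathepsins, 6 were measured over EGFP and 0 passed 2-fold, where 3.33% of all genes were higher and 5.08% lower, so that a list of this size carries few calls. Their median was 0.38, with 5 of 6 above 0. Ctsw, a protease of cytotoxic lymphocytes, had -0.83 and Ctsg, a serine protease of neutrophils, 0.54. Over Oct4-EGFP, 1 of 6 was higher and 0 lower: Tinagl1, a secreted relative without protease activity, had 2.70 at the probe used and 1.68 at its other probe. Ctsw had -0.57 there. Oct4-EGFP over EGFP gave -2.21 for Tinagl1 (-0.72 at the other probe) and 0.77 for Ctsf. The placental cathepsins, a rodent family on chromosome 13 made by trophoblast giant cells and spongiotrophoblast, were mostly dim. Of 11 genes listed, 6 were measured over EGFP and 5 over Oct4-EGFP, and 0 passed 2-fold in either. The list also holds Ctla2a and Ctla2b, which are not cathepsins, and neither was measured. Over Oct4-EGFP, 4.54% of all genes were higher and 7.13% lower. Cts6 had 0.76 over EGFP and Cts3 -0.66 over Oct4-EGFP.

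Among 12 inhibitors of cathepsins and related proteases, 10 were measured over EGFP, with 0 higher and 1 lower (all genes, 3.33% and 5.08%). The lower gene was Cst6, cystatin E/M, an inhibitor of cathepsin L, with a log2 ratio of -2.22, and it had -1.81 in Oct4-EGFP over EGFP. Over Oct4-EGFP, 1 of 9 was higher (all genes, 4.54%), Stfa1, a cytosolic stefin, with 2.34. Stfa1 has near-identical neighbours that its probe may also bind, so the value is uncertain as to the gene. Spint1, which inhibits serine proteases, had 0.94 over EGFP.

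**Figure D5:**
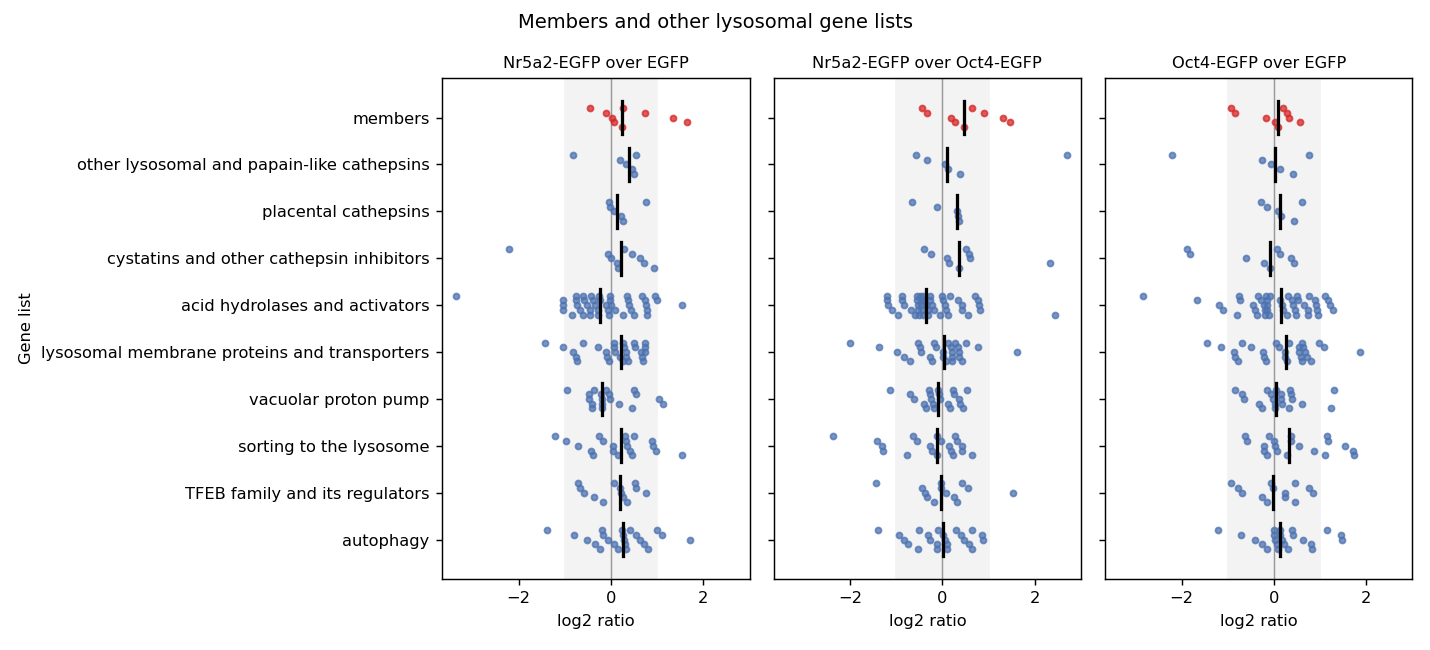
Log2 ratio of each measured gene (points) in the members and 9 further lists of lysosomal genes, for the 3 comparisons (panels); bars are list medians and grey bands mark ratios under 2-fold. The median of the acid hydrolases is below 0 in both comparisons with Nr5a2-EGFP, at -0.23 and -0.37, while that of the members is above 0, at 0.24 and 0.47. Over EGFP, the pump (-0.19) is the only other list below 0, and other cathepsins (0.38) and autophagy (0.26) lie above the members. Over Oct4-EGFP, the pump (-0.10), sorting (-0.11) and TFEB (-0.03) lists are also below 0.

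The acid hydrolases and their activators, which break down sugars, lipids and protein beside the cathepsins, had a median of -0.23 over EGFP and -0.37 over Oct4-EGFP. Over EGFP, 2 of 43 read at least 2-fold higher and 4 lower (all genes, 3.33% and 5.08%). Psap, the precursor of the saposins and itself a partner of progranulin, had 1.54 there and 1.12 in Oct4-EGFP over EGFP. EGFP thus stood low for Psap. Over Oct4-EGFP, 1 of 45 was higher and 4 lower (all genes, 4.54% and 7.13%). Gm2a, the activator of GM2 ganglioside breakdown, was the higher one (2.43, or 5.40-fold).

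Of 28 other lysosomal membrane proteins and transporters, 0 were higher and 2 lower over EGFP, and 1 was higher and 2 lower over Oct4-EGFP. Of all genes, 3.33% were higher and 5.08% lower over EGFP, and 4.54% and 7.13% over Oct4-EGFP. Laptm5, a membrane protein of blood cells, had -1.03 and -2.01 at the probe used and -1.14 and -1.88 at its other probe. With the other reading of Nr5a2-EGFP, the probe used gave -0.68 over EGFP, short of 2-fold. Lmbrd1, which takes part in the export of cobalamin from the lysosome, had -1.44 over EGFP and -1.45 in Oct4-EGFP over EGFP. Cd63, a tetraspanin, had 1.61 over Oct4-EGFP. Scarb2, which carries glucocerebrosidase to the lysosome, had -1.36 over Oct4-EGFP and 1.86 in Oct4-EGFP over EGFP. For the vacuolar proton pump, which acidifies the lysosome, 2 of 19 subunits were higher over EGFP: Atp6v0b (1.04) and Atp6v0c (1.13). Over Oct4-EGFP, 0 of 21 were higher and 1 lower, Atp6v0d1 with -1.13 (-0.96 with the other reading of Nr5a2-EGFP). The medians of the pump were -0.19 and -0.10. With median centring in place of loess the first became 0.07, so its side of 0 depends on the scaling.

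Of 20 genes that sort enzymes to the lysosome, 6 were at least 2-fold higher and 0 lower in Oct4-EGFP than in EGFP, where 6.39% of all genes were higher and 5.78% lower. Among them, Ap1g1, a subunit of the clathrin adaptor AP-1, had 1.74 and the endocytic receptor Lrp1 1.72. Over Oct4-EGFP, 0 of 20 were higher and 4 lower in Nr5a2-EGFP (all genes, 4.54% and 7.13%), with Sorl1, a sorting receptor, at -2.36 (-1.59 at its other probe) and Ap1g1 at -1.41. These comparisons share the Oct4 array and are not independent. Over EGFP, 1 was higher (Psap, which is on this list and on that of the hydrolases). The 1 lower was Sorl1 (-1.22, but -0.07 at its other probe and -0.64 with the other reading of Nr5a2-EGFP). Of all genes, 3.33% were higher and 5.08% lower there.

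Of 13 genes of the TFEB family and its regulators, 0 passed 2-fold over EGFP, where Rragd, a GTPase that recruits mTORC1 to the lysosome, had 0.76 and the mTORC1 subunit Rptor -0.71. Over Oct4-EGFP, Rragd was the 1 gene higher (1.53) and Lamtor2, a subunit of the lysosomal Ragulator complex, the 1 lower (-1.43). Of all genes, 4.54% were higher and 7.13% lower there. With the other reading of Nr5a2-EGFP, Lamtor2 had -0.51, as the readings were 0.92 apart. Over EGFP, Lamtor2 had -0.67, but -1.59 with the other reading, which is past 2-fold lower. Tfeb itself had -0.93 in Oct4-EGFP over EGFP. Of 23 autophagy genes, 2 were higher and 1 lower over EGFP (all genes, 3.33% and 5.08%). Vps18, a tethering subunit for fusion with the lysosome, had 1.71 at the probe used but -1.58 at its other probe. Atg3, the enzyme that attaches LC3 to lipid, was the lower one over both EGFP (-1.38) and Oct4-EGFP (-1.40). Rab7, a GTPase of late endosomes, and Ulk1, a kinase that starts autophagy, had 1.48 and 1.46 in Oct4-EGFP over EGFP.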

How the data were processed

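The 2 arrays (Agilent design 026655, mouse) hold 43020 spots each, and probe positions are those of mm9, per the file headers. Spot intensity was deposited as scanner output of Feature Extraction; the file headers name version 10.7.3.1 and the submitters' processing notes 9.3.2.1. The authors also deposited the software's log10 ratio with its error, and a table of log2 values whose scale and centring are not stated. That table tracked the software's log2 ratio (r 0.997 on both arrays, slopes 0.988 and 0.987, column medians 0.029 and 0.048), so its direction was taken as Cy5 over Cy3; its log base was inferred from this match. Spot flags and other score columns were used as deposited.

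Mean spot signals were corrected with normexp (offset 50) on the local median background, normalized by loess within arrays, and scaled between arrays by Aquantile for single-channel levels (limma 3.58.1, R 4.3.3). Control spots and spots with an outlier flag were left out. Probes were named by RefSeq accession where possible, otherwise by the file's gene name, and a gene took its brightest probe. A gene was measured if well above background in at least 1 channel of the comparison, and higher or lower meant at least 2-fold. "At least" folds set the bright channel against the higher of the dim probe's own signal and the lowest signal well above background. Spots printed 10 times (399 probes) had a median SD of the log2 ratio of 0.068 and 0.066. The number of arrays limits precision.

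The named genes were all members' probes, Nr5a2, Pou5f1 and, of each other list, the 2 genes with the largest ratio of either sign in each comparison among unsaturated genes well above background; some of these are not reported here. The members and lists were chosen with earlier results of these data known. There were 12 alternative settings, 1 of them added after seeing the data. The steps were tested on simulated data. A comparison of the members' protein sequences was planned and not run, as no protein sequence was used here.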

Additional observations from a re-analysis of the deposited data

How the results depend on the processing

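No paired analysis was possible because each pair of clones was hybridised once. Ctsb and Ctsl were at least 2-fold higher in Nr5a2-EGFP under every setting that changed normalization, background or reading. Each has 1 probe, unsaturated, without an outlier flag and well above background in every channel. The settings for probe choice, filter, saturation and outlier spots could therefore not change their ratios. The log2 ratios of Ctsb and Ctsl ranged from 1.61 to 1.90 and 1.16 to 1.54 over EGFP, and from 1.46 to 1.66 and 1.32 to 1.51 over Oct4-EGFP. At a threshold of 1.5-fold, 4 members in place of 2 were higher over Oct4-EGFP (Lamp2 and Ctsa added), where 12.7% of all genes were. For Oct4-EGFP over EGFP, 2 members in place of 0 were lower at that threshold, and 1 at 2-fold when Cy3 levels were used (Grn). Of 105 counts and medians of the members under the other settings, 102 moved by less than the limit set for them and 3 by more. Of 1236 further values, for single members and the other lists, 88 moved by more than their limit. Some ratios of single members changed sign. The mean over probes brought Ctsa to 0.39 and Ctsd to -0.08 over EGFP, and Lamp2 to -0.06 over Oct4-EGFP and 0.30 in Oct4-EGFP over EGFP. Median centring in place of loess shifted the median of all genes over EGFP from 0.03 to 0.16. It raised the share of higher among 2-fold calls from 39.6% (866 higher, 1321 lower) to 63.2% (1545 higher, 899 lower), and brought Lamp2 to 1.13 over Oct4-EGFP. The software's ratio gave 1783 higher and 2134 lower genes over EGFP, 1964 and 2609 over Oct4-EGFP (1187 and 1862 by the main setting), and 2632 and 2512 in Oct4-EGFP over EGFP (1710 and 1547). The value table gave 1808 and 2123, 2054 and 2544, and 2484 and 2544. The cause was not tested. Signal over background limits Ctsc and the placental cathepsins, and saturation limits Lamp1.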
